A study of Mus musculus with 19 samples.

Results

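The genes described here encode the machinery that brings proteins into mitochondria, the enzymes that charge the tRNAs of the mitochondrial matrix, and the proteins that copy and read the mitochondrial genome. They were taken from the gene table by symbol, as every row named Timm or Tomm followed by a digit and every row ending in ars2. Tfam, Tfb1m, Tfb2m, Polg, Polrmt and Mtrf1l were added by name. The rule reads no measured value, but it was set with earlier results of these data known. The rule found 45 of the 14996 genes listed. Of these, 22 belong to import (9 Tomm and 13 Timm genes), 17 are mitochondrial tRNA synthetases and 6 serve genome expression.

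RNA-seq was done on cortex of APP23 mice, a C57Bl6 line hemizygous for human APP with the familial Swedish mutation. The murine Thy-1 promoter drives this transgene, mainly in neurons, and every mouse carried it, so no group stands for a mouse without amyloid. Feeding lasted 3 months and began at 11.7 months of age on average, either with a normal diet (ND) or with a high fat diet (HFD) in which fat gave 40% of the calories. On ND there were 6 females and 4 males, and on HFD 5 females and 4 males, with 1 library for each mouse and no pooling, and mice are named below by their identifiers in the labels. Each gene in each library has a read count and an RPM value, the reads scaled to a common library total.

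Most mitochondrial proteins are made in the cytosol and enter through the TOM complex of the outer membrane. The TIM23 complex then takes precursors with a cleavable signal into the matrix, while small Tim chaperones carry hydrophobic proteins across the intermembrane space to the TIM22 complex. Inside, the mitochondrial DNA is packaged by Tfam, copied by Polg and transcribed by Polrmt with Tfam and Tfb2m, and its few mRNAs are translated with tRNAs that only the matrix synthetases charge. All members are nuclear genes, so their mRNAs, and not the mitochondrial transcripts, were measured.

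Library totals ran from 11727151 to 17178044 reads in females and from 9308206 to 10844280 in males, so sex and depth cannot be told apart in any comparison of the sexes. All 11 cortical neuron markers were present, with a summed level of 8639 to 12072 RPM. Summed olfactory bulb markers (7 of 7 listed) ran from 14.1 to 59.9 RPM in ND females, 9.29 to 12.8 in HFD females, 90.4 to 212.8 in ND males and 9.52 to 160.6 in HFD males, so they moved with diet and with sex. Summed homeostatic microglia markers (8 of 8) ran from 457.8 to 600.5, 474.7 to 700.8, 388.2 to 444.7 and 409.0 to 581.2 RPM in the same order. The part of these markers in the differences below was not tested beyond fits that carry each list as a covariate. Over all libraries, summed striatum markers (6 of 7 listed) ran from 214.9 to 1789 RPM. Choroid plexus markers (5 of 5) ran from 13.3 to 384.8 RPM and blood markers (4 of 5) from 0.767 to 88.2 RPM. No fit carried the striatum, choroid plexus or blood list as a covariate. In whole tissue, fewer cells of a type and less RNA per cell cannot be told apart.

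The promoters of 39 of the 45 members matched RefSeq promoter windows (GRCm38.p6, 250 bases before to 50 after the gene start). The table was made on mm9, so these windows serve for sequence only. Motifs of 3 regulators of mitochondrial genes and a stress motif were searched on both strands. CCGGAAG, the core bound by GABP and other ETS factors, was in 14 of the 39 windows (35.9%), against 9.12% of all 27025 windows and 16.2% of the 11162 windows that matched genes of the table. The share was 36.8% for import, 28.6% for synthetases and 50% for genome expression. The NRF1 motif was in 5 (12.8%, against 4.78% and 9.66%), and AAGATGGC, the YY1 motif, in 4 (10.3%, against 2.88% and 4.33%). TGATGNAA, the motif of ATF4 with a CEBP partner, was in 0 of the 39 (4.06% and 2.17% of the other sets) and in 4 of 14 windows of cytosolic tRNA synthetases and their scaffold proteins (28.6%). A match is a description of letters and not a site in use.

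The last 100 bases before the gene start are printed for members whose diet values are given in most detail below, 5′ to 3′ in the direction of the gene. Capitals mark CCGGAAG or its complement in Mars2, Tomm34 and Timm10, and the NRF1 motif in Tomm20. The stretches of Tfb2m and Mtrf1l held none of the motifs. The windows of Tfam, Polg, Tomm22 and Tomm70a, which are not among the members called for diet below, also held CCGGAAG or its complement. A link between motif and diet was not tested.
Mars2, chr1:55237077-55237176, plus strand: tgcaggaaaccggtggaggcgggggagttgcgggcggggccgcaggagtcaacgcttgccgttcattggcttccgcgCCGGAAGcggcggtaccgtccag
Tomm34, chr2:164071170-164071269, minus strand: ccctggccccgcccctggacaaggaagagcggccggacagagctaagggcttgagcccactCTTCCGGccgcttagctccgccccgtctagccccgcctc
Timm10, chr2:84826921-84827020, plus strand: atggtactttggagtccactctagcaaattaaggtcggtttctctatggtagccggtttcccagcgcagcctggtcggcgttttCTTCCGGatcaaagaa
Tomm20, chr8:126945922-126946021, minus strand: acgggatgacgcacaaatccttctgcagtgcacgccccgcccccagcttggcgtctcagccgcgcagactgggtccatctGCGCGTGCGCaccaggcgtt
Tfb2m, chr1:179546277-179546376, minus strand: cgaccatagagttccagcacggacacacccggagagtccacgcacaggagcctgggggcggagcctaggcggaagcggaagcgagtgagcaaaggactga
Mtrf1l, chr10:5823944-5824043, minus strand: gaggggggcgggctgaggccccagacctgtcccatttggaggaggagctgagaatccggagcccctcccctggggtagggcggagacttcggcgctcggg

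Levels between genes were compared as RPM per kilobase of exon annotated in GENCODE M21, as medians over the 19 libraries. The length joins the exons of all isoforms of a gene, while the counts were made on mm9, so the order also depends on annotation. Within import, the small chaperone Timm8b (71.5), the small TOM subunits Tomm6 (48.6) and Tomm7 (33.3) and the receptor Tomm22 (31.5) stood highest. Timm8a1 (0.964) and Timm23, the channel of the TIM23 complex (0.858), stood lowest. Within genome expression the order was Tfam (7.96), Polrmt (5.38), Polg (4.83), Tfb2m (2.11), Mtrf1l (1.98) and Tfb1m (1.35). Among the synthetases Lars2, the leucyl enzyme, was at 103.7 and the next, the isoleucyl enzyme Iars2, at 6.64, while the other 15 were at or below 5.42, down to 1.03 for Ears2.

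Sequence shared with other transcripts limits some of these values, since the handling of reads that match several genes, and of strand, is not given in the sources used here. In mouse GENCODE transcripts, Timm23 was 99.9% identical to Gm10273 over 1121 of its 1173 bases and 100% identical to the pseudogenes Gm10171 and Gm10233 over 628 bases. Timm8a1 shared 612 bases with Gm9797 at 100%, Tfb2m 1187 bases with Gm1818 at 99.3%, and Tomm20 435 bases with Gm14494 at 99.5%. Tomm6 shared 656 of its 749 bases with Gm21981 at 100%, and Timm10b 365 bases with Gm45799 at 99.7%. Further members with such matches were Tomm22, Timm17a and Timm21. Counts of these genes are therefore uncertain. Iars2 and Rab3gap2 overlapped on opposite strands over 2034 bases, Tomm40l and Nr1i3 over 2119, Fars2 and Nrn1 over 503, and Polg and Fanci over 401.

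The first comparison asked whether HFD changed these mRNAs in cortex, with both sexes together and sex in the model. The differences were small. Of 45 members, 4 were higher and 4 lower on HFD at an unadjusted p under 0.05 in the quasi-likelihood test of edgeR, a share of 17.8% beside 12.4% of all 14834 genes tested (5.44% higher and 6.99% lower). The higher members were Mars2, Tfb2m, Tomm34 and Timm10, and the lower ones Mtrf1l, Tomm20, Tomm6 and Yars2. The ND and HFD mice of both sexes overlapped in RPM for all 45 members, as they did for all but 0.00674% of genes. With p-values adjusted over all genes 0 of 45 passed 0.05 (smallest 0.20), and 0 did in the likelihood ratio test of edgeR, in DESeq2 or in limma-voom. The members had a median log2 fold change of -0.0039, beside -0.0028 for all genes, and 35 of 45 were within 0.1 of zero on the log2 scale with a median SE of 0.0575. By subgroup, 2 of 22 import genes were higher and 2 lower, as were 1 and 1 of 17 synthetases and 1 and 1 of 6 genome expression genes.

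**Figure D1:**
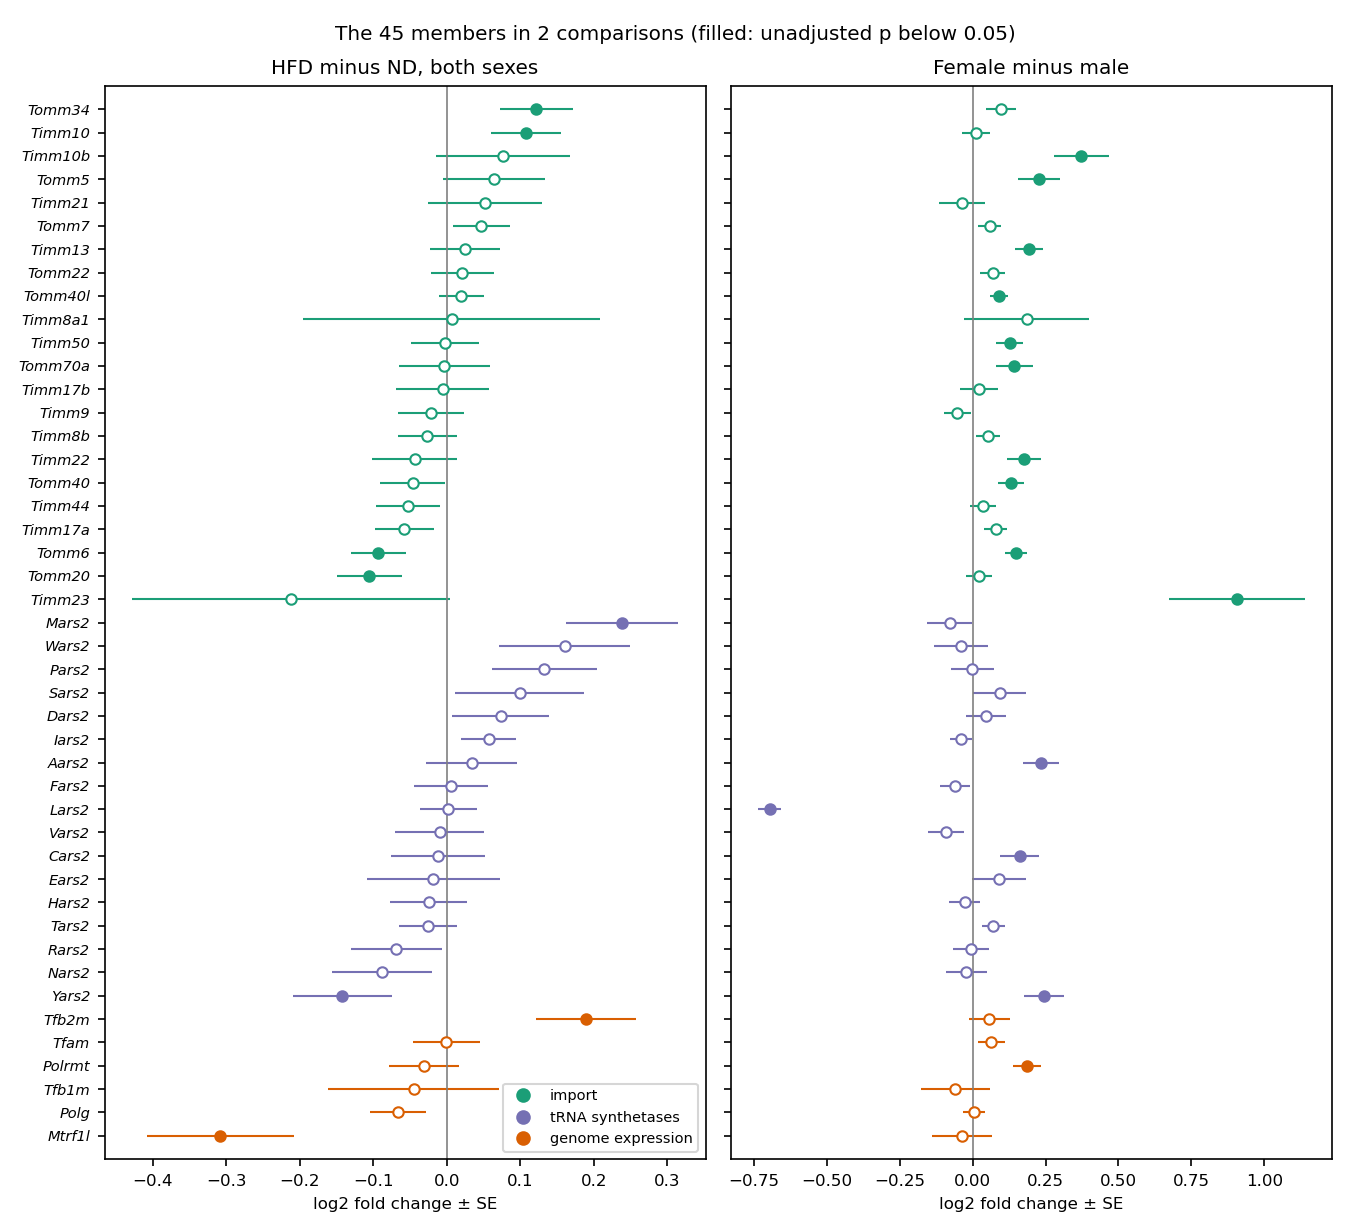
Log2 fold change with its SE (horizontal bars) of each of the 45 members, for HFD minus ND with both sexes (left) and for female minus male (right), coloured by subgroup and filled where the unadjusted p was under 0.05. On the left 8 of 45 points are filled and lie on both sides of zero. On the right 20 of 22 import genes lie above zero and Lars2 stands apart at -0.70.

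Mars2, the methionyl synthetase of mitochondria, had the smallest p of the higher members. Its level ran from 9.45 to 13.3 RPM with a median of 11.5 in ND females, and was 14.19, 11.05, 13.97, 12.57 and 12.58 RPM in HFD females (F1063, F1076, F1094, F1100, F1252). In males it was 11.7, 11.2, 9.55 and 13.9 RPM on ND (F1079, F1080, F1128, F1131) and 14.5, 13.2, 14.4 and 15.8 RPM on HFD (A1095, F1065, F1129, F1145). The groups overlapped in each sex, in males by the ND mouse F1131 alone. The log2 fold change was 0.24 (SE 0.08, unadjusted p = 0.0051, adjusted p = 0.20, edgeR). Counts were 98 to 204 reads per library. The call held in all 16 alternative analyses and without any 1 of the 19 mice, with a log2 fold change of 0.20 to 0.27 without a mouse.

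Tfb2m, the factor that lets Polrmt start transcription, was at 5.21 to 6.14 RPM (median 5.603) in ND females and at 6.22, 5.70, 6.52, 6.54 and 6.26 RPM in HFD females in the same order of mice. Males had 6.54, 5.03, 4.29 and 5.48 RPM on ND and 6.18, 5.92, 5.96 and 6.47 RPM on HFD. The 9 HFD mice lay between 5.70 and 6.54 RPM, while the ND mice spread from 4.29 to 6.54, with the ND male F1079 level with the highest HFD mice. Counts were 44 to 102 reads per library, and the difference in spread was not tested. Tfb2m had a log2 fold change of 0.19 (SE 0.07, unadjusted p = 0.015, adjusted p = 0.27, edgeR). The near copy Gm1818 stood at 6.41 to 9.30 RPM with a log2 fold change of 0.08 (SE 0.08, unadjusted p = 0.30), and counts of both genes added up gave 0.13 (SE 0.05, unadjusted p = 0.023). The study's text names Tfb2m, Timm10 and Tomm20 from this experiment, with a number of HFD males that differs from the libraries used here, so their values are not independent evidence.

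Mtrf1l, a release factor that ends mitochondrial translation, had the smallest p of the lower members. ND females had 6.22 to 8.38 RPM (median 7.04), and HFD females 4.99, 5.77, 5.201, 4.75 and 8.62 RPM. ND males had 8.22, 7.90, 8.18 and 6.12 RPM, and HFD males 5.53, 5.34, 5.86 and 6.47 RPM. Of the HFD mice 8 of 9 were at or below 6.47 RPM, and the exception, the HFD female F1252, was higher than every ND mouse. Its log2 fold change was -0.31 (SE 0.10, unadjusted p = 0.0057, adjusted p = 0.21, edgeR), with 55 to 144 reads per library. This call held in all 16 alternatives and without any 1 mouse, with a log2 fold change of -0.41 to -0.27 without a mouse.

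**Figure D2:**
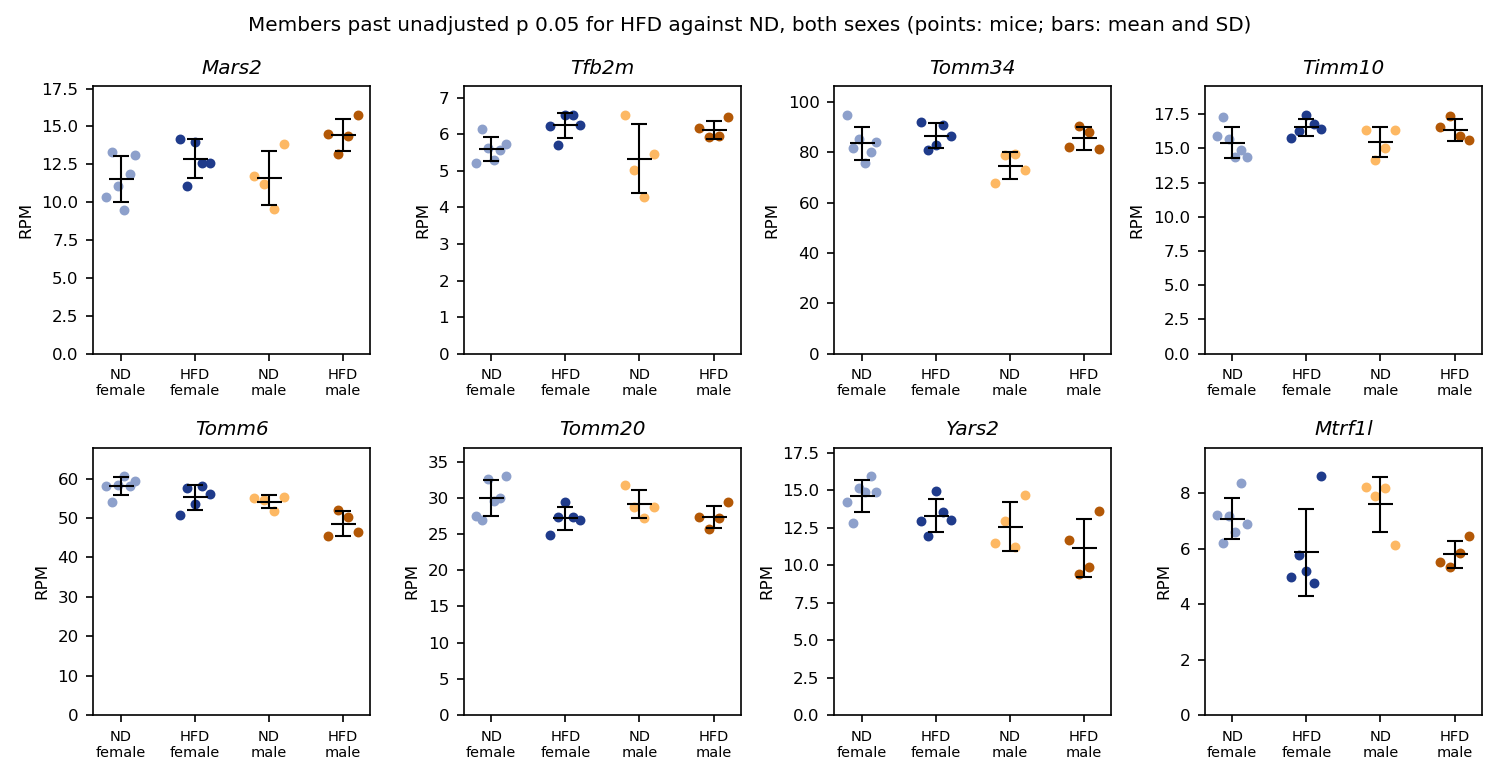
RPM (vertical axis, from 0) of the 8 members past an unadjusted p of 0.05 for diet with both sexes, in the 4 groups, with 1 point for each mouse and bars for the mean and SD. The diet groups overlap in every panel, except Tomm34 in males. The HFD female at 8.62 RPM stands above the other mice for Mtrf1l.

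Import genes split in direction. Tomm34, a cytosolic partner of the import machinery that binds chaperones, had 67.9, 78.8, 79.3 and 72.9 RPM in ND males and 82.2, 90.4, 88.0 and 81.3 RPM in HFD males, with no overlap. In females the diets overlapped widely, with 75.6 to 94.9 RPM on ND and 80.7 to 92.1 on HFD. Its log2 fold change with both sexes was 0.12 (SE 0.05, unadjusted p = 0.023, adjusted p = 0.31, edgeR), and the call was lost with the cortical neuron, microglia or olfactory bulb list as a covariate (unadjusted p = 0.051 to 0.38). Timm10, which forms a chaperone of the intermembrane space together with Timm9, had means of 15.4 RPM ± 1.14 (SD, n = 6) and 16.5 ± 0.634 (n = 5) in ND and HFD females, and 15.5 ± 1.07 (n = 4) and 16.4 ± 0.798 (n = 4) in ND and HFD males. Its log2 fold change was 0.11 (SE 0.05, unadjusted p = 0.033, adjusted p = 0.34, edgeR). The call was lost in 8 of 16 alternatives, DESeq2 among them, and without F1094, F1080 or F1065 (unadjusted p = 0.057, 0.052 and 0.056). Its partner Timm9 had a log2 fold change of -0.02 (SE 0.05).

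Tomm20, a receptor that reads import signals, had means of 29.9 RPM ± 2.50 (SD, n = 6) in ND females and 27.2 ± 1.61 (n = 5) in HFD females, and 29.1 ± 1.91 (n = 4) and 27.4 ± 1.54 (n = 4) in males. This gave a log2 fold change of -0.11 (SE 0.04, unadjusted p = 0.026, adjusted p = 0.31, edgeR). It missed 0.05 in 4 of 16 alternatives and without F1074, F1139, F1063, F1252 or F1079 (unadjusted p = 0.052 to 0.074), and with the microglia list as a covariate it was -0.02. Tomm6, a small subunit of the TOM complex, had 58.1 RPM ± 2.21 (SD, n = 6) and 55.3 ± 3.11 (n = 5) in ND and HFD females, and 54.2 ± 1.62 (n = 4) and 48.6 ± 3.09 (n = 4) in males. Its log2 fold change was -0.09 (SE 0.04, unadjusted p = 0.022, adjusted p = 0.30, edgeR), and the call was lost without F1063, A1095 or F1145 (unadjusted p = 0.061, 0.058 and 0.065) and in 3 of 16 alternatives (unadjusted p = 0.063 to 0.076). The receptors Tomm22 (0.02, SE 0.04) and Tomm70a (-0.0039, SE 0.06) and the channel Tomm40 (-0.05, SE 0.04) did not pass. The matrix motor adaptor Timm44 (-0.05, SE 0.04) and the TIM23 subunit Timm17a (-0.06, SE 0.04) did not either.

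Of the synthetases, Yars2, the tyrosyl enzyme, had 14.6 RPM ± 1.07 (SD, n = 6) in ND females and 13.3 ± 1.10 (n = 5) in HFD females, and 12.6 ± 1.61 (n = 4) and 11.2 ± 1.92 (n = 4) in males. This was the least firm of the 8 calls. The log2 fold change was -0.14 (SE 0.07, unadjusted p = 0.047, adjusted p = 0.39, edgeR), and it was lost in 10 of 16 alternatives and without any 1 of 14 mice (unadjusted p = 0.053 to 0.10), all but F1073, F1094, F1079, F1128 and F1145. The prolyl enzyme Pars2 (0.13, SE 0.07, unadjusted p = 0.079) and the tryptophanyl enzyme Wars2 (0.16, SE 0.09, unadjusted p = 0.087) followed in order of p, with Iars2 (0.06, SE 0.04) after them. The summed level of the 16 synthetases other than Lars2 was 286.5 RPM ± 9.05 (SD, n = 6) and 288.5 ± 9.55 (n = 5) in ND and HFD females, and 283.0 ± 8.36 (n = 4) and 284.9 ± 14.6 (n = 4) in males, so the diets differed by less than the spread between mice. Of the genome expression genes Polg, the DNA polymerase (-0.07, SE 0.04, unadjusted p = 0.090), came next after Mtrf1l and Tfb2m. Polrmt followed in order of p (-0.03, SE 0.05), and Tfam had -0.0007 (SE 0.05).

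Each sex was then fitted alone. In 11 females the unadjusted p was under 0.05 for 3 of 45 members, 1 higher and 2 lower on HFD (6.67%, beside 8.42% of all genes, 3.92% higher and 4.50% lower), and in 8 males 2 of 44 were higher and 1 lower (6.82%, beside 8.41% of all genes, 4.20% in each direction). Adjusted p-values passed 0.05 for 0 members in each sex in the quasi-likelihood test, the likelihood ratio test, DESeq2 and limma-voom (smallest 0.45 in females and 0.55 in males). Timm23 was dropped from the male fit by the filter on low counts, with 5 to 17 reads per male library. Of the other 44 members, 27 (61.4%) had the same sign in both sexes, 13 higher and 14 lower. The share over all genes was not taken, so this count does not show agreement particular to these members.

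**Figure D3:**
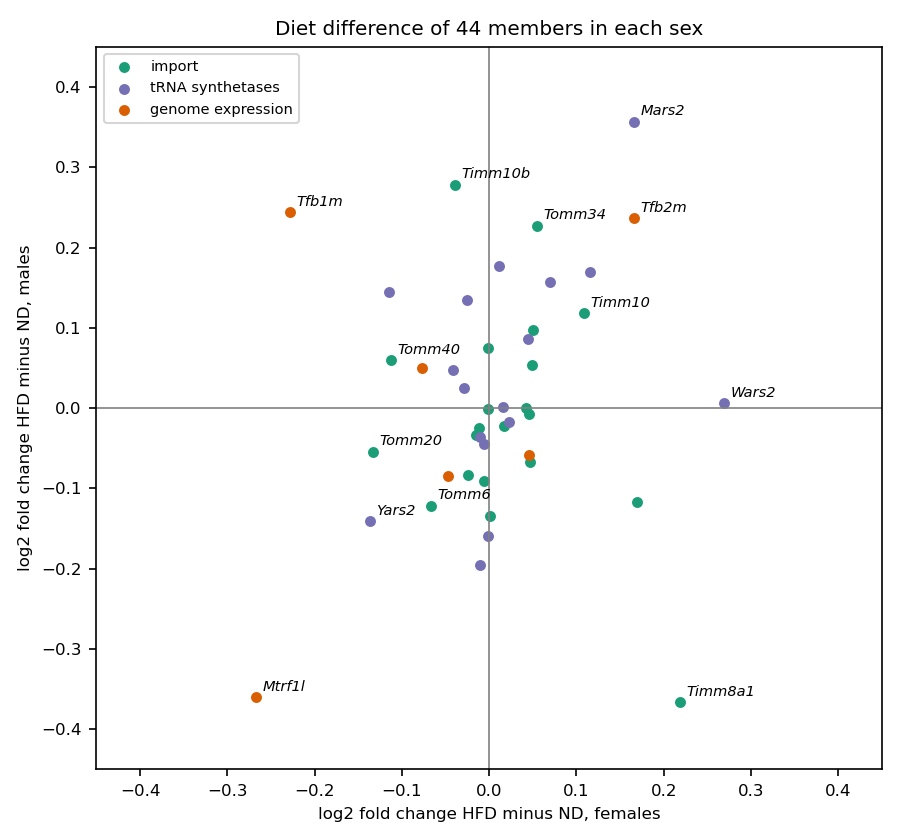
Log2 fold change of HFD minus ND in females (horizontal axis) against males (vertical axis) for the 44 members tested in both sexes, coloured by subgroup. Mars2 and Tfb2m lie at the upper right and Mtrf1l at the lower left. Wars2 lies on the horizontal line, and Tfb1m and Timm8a1 lie where the signs are opposite.

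In males Mars2 (log2 fold change 0.36, SE 0.11, unadjusted p = 0.0076), Tomm34 (0.23, SE 0.08, unadjusted p = 0.013) and Mtrf1l (-0.36, SE 0.14, unadjusted p = 0.021) passed in edgeR. The male call of Tomm34 was lost with the neuron, microglia or olfactory bulb markers as a covariate (unadjusted p = 0.064 to 0.100). The same 3 genes had 0.17 (SE 0.10), 0.06 (SE 0.06) and -0.27 (SE 0.15) in females. The male call of Mtrf1l was lost without F1080, F1128 or A1095 (unadjusted p = 0.051 to 0.055), without both A mice, and with the microglia or olfactory bulb markers as a covariate (unadjusted p = 0.051 to 0.19 over these 3 alternatives). The male diet groups did not overlap in RPM for Tomm34, higher on HFD, and for Timm17a, lower on HFD (38.4 to 43.5 RPM on ND and 34.2 to 37.9 on HFD, log2 fold change -0.13, SE 0.07, unadjusted p = 0.068). Of all genes in males 1.53% were higher and 3.39% lower without overlap. With library totals in place of TMM scaling, 3 members were lower in males instead of 1.

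In females Wars2 was higher (log2 fold change 0.27, SE 0.11, unadjusted p = 0.031, edgeR), with 6.79 to 11.1 RPM (median 9.29) on ND and 11.1, 9.71, 11.1, 12.3 and 10.9 RPM on HFD. The lowest ND female, A1092, stood at 6.79 RPM, and without it the call was lost, as it was without F1102, F1104, F1094 or F1100 (unadjusted p = 0.054 to 0.082). In males Wars2 had 0.01 (SE 0.13). Tomm40, the channel of the TOM complex, was lower in females (-0.11, SE 0.05, unadjusted p = 0.047), a call lost in 6 of 15 alternatives and without A1092, F1073, F1104, F1139, F1076 or F1252 (unadjusted p = 0.076 to 0.14).

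Timm23 was the lower member with the smallest p in females. Its level was 2.12, 2.13, 1.64, 2.15, 1.86 and 3.18 RPM in ND females (A1092, F1073, F1074, F1102, F1104, F1139) and 1.38, 1.55, 1.16, 1.54 and 1.53 RPM in HFD females, so that every HFD female was below every ND female. Of all genes 0.393% were lower without overlap in females. In males the order was the opposite, with 0.991, 0.923, 0.487 and 0.537 RPM on ND and 0.738, 1.46, 1.66 and 0.882 RPM on HFD, and the diets overlapped. The log2 fold change in females was -0.59 (SE 0.19, unadjusted p = 0.0079, adjusted p = 0.45, edgeR), and with the olfactory bulb markers as a covariate its p was 0.055. These are 15 to 47 reads per female library and 5 to 17 per male library on a gene with near-identical copies.

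Whether the diet difference itself depended on sex was tested as an interaction. At an unadjusted p under 0.05, 2 of 45 members passed (4.44%, beside 5.21% of all genes, 2.83% positive and 2.38% negative), and 0 at the adjusted level in the quasi-likelihood test, the likelihood ratio test, DESeq2 or limma-voom. Timm23 had an interaction of 1.31 on the log2 scale (SE 0.39, unadjusted p = 0.0034, adjusted p = 0.90, edgeR), male minus female. It kept an unadjusted p under 0.05 in all 14 alternatives and without any 1 mouse, but these refits use the same few reads. The filter on low counts had dropped Timm23 from the fit of males alone, with 5 to 17 reads per male library, and the gene has near-identical copies. Its interaction is therefore a description and does not support a diet response that differs between the sexes. Tfb1m, the methyltransferase of the small mitochondrial rRNA, had 0.47 (SE 0.22, unadjusted p = 0.044, adjusted p = 0.90, edgeR). It had 5.04 RPM ± 0.464 (SD, n = 6) and 4.27 ± 0.897 (n = 5) in ND and HFD females, and 4.54 ± 0.973 (n = 4) and 5.24 ± 0.654 (n = 4) in ND and HFD males. The Tfb1m call was lost without any 1 of 12 mice (unadjusted p = 0.050 to 0.096), all but A1092, F1139, F1063, F1076, F1252, F1131 and F1129. Neither diet difference of Tfb1m passed within a sex.

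The sexes themselves were compared with diet in the model. Differences were more frequent than for diet. At an unadjusted p under 0.05, 14 members were higher in females and 1 lower (33.3% of 45), beside 26.6% of all 14834 genes (14.1% higher and 12.5% lower). Once adjusted, 8 were higher and 1 lower (20%), beside 11.3% over all genes (6.29% higher and 4.98% lower). Of 22 import genes 10 were higher and 0 lower at the unadjusted level, and 20 had a positive sign (90.9%, beside 50.73% of all genes), with a median log2 fold change of 0.09 beside 0.0021 for all genes. All 9 Tomm genes were positive. The members higher at each level, and the 10 import genes, include Timm23. That gene had 5 to 17 reads per male library and entered the comparison through the female libraries. It does not support a higher level in females. The synthetases divided, with 3 higher and 1 lower of 17 and 7 positive signs, and of the genome expression genes 1 of 6 was higher. Female libraries were deeper, and ND male libraries held the most olfactory bulb signal.

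Lars2 was the member with the smallest p in any comparison, and it was lower in females. ND females had 1053 to 1144 RPM and HFD females 1037, 1205, 1149, 1041 and 1126 RPM. ND males had 1804, 1692, 1937 and 1890 RPM, and HFD males 1846, 1619, 1857 and 1750 RPM. All 11 females lay below all 8 males, as was true of 0.195% of all genes. The log2 fold change, female minus male, was -0.70 (SE 0.04, adjusted p = 6.3e-11, edgeR), while for diet it was 0.0019 (SE 0.04). It ran from -0.71 to -0.68 without any 1 mouse and from -0.70 to -0.66 in the 16 alternatives, and with the olfactory bulb markers as a covariate it was the 1 member past an adjusted p of 0.05.

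Lars2 took more reads than the other 16 synthetases together in every group, with 12353 to 20016 reads per library. No other annotated transcript shared 250 or more bases with it at 95% identity, but this search covered spliced GENCODE transcripts only. Whether the Lars2 locus on mm9 holds sequence like rRNA was not analysed here, so its level and its difference between the sexes may include reads that are not Lars2 mRNA. In the same libraries Rn18s, an rRNA gene, was at 686.6 to 3022 RPM in females (median 1055) and 1418 to 3679 in males (median 2267), with a log2 fold change of -1.06 (SE 0.26, adjusted p = 0.016, edgeR). The mitochondrial rRNA rows had 0.24 (Rnr1, SE 0.07, adjusted p = 0.039) and 0.17 (Rnr2, SE 0.07, adjusted p = 0.11), in the other direction. The part of carried-over rRNA in the Lars2 difference was not tested.

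**Figure D4:**
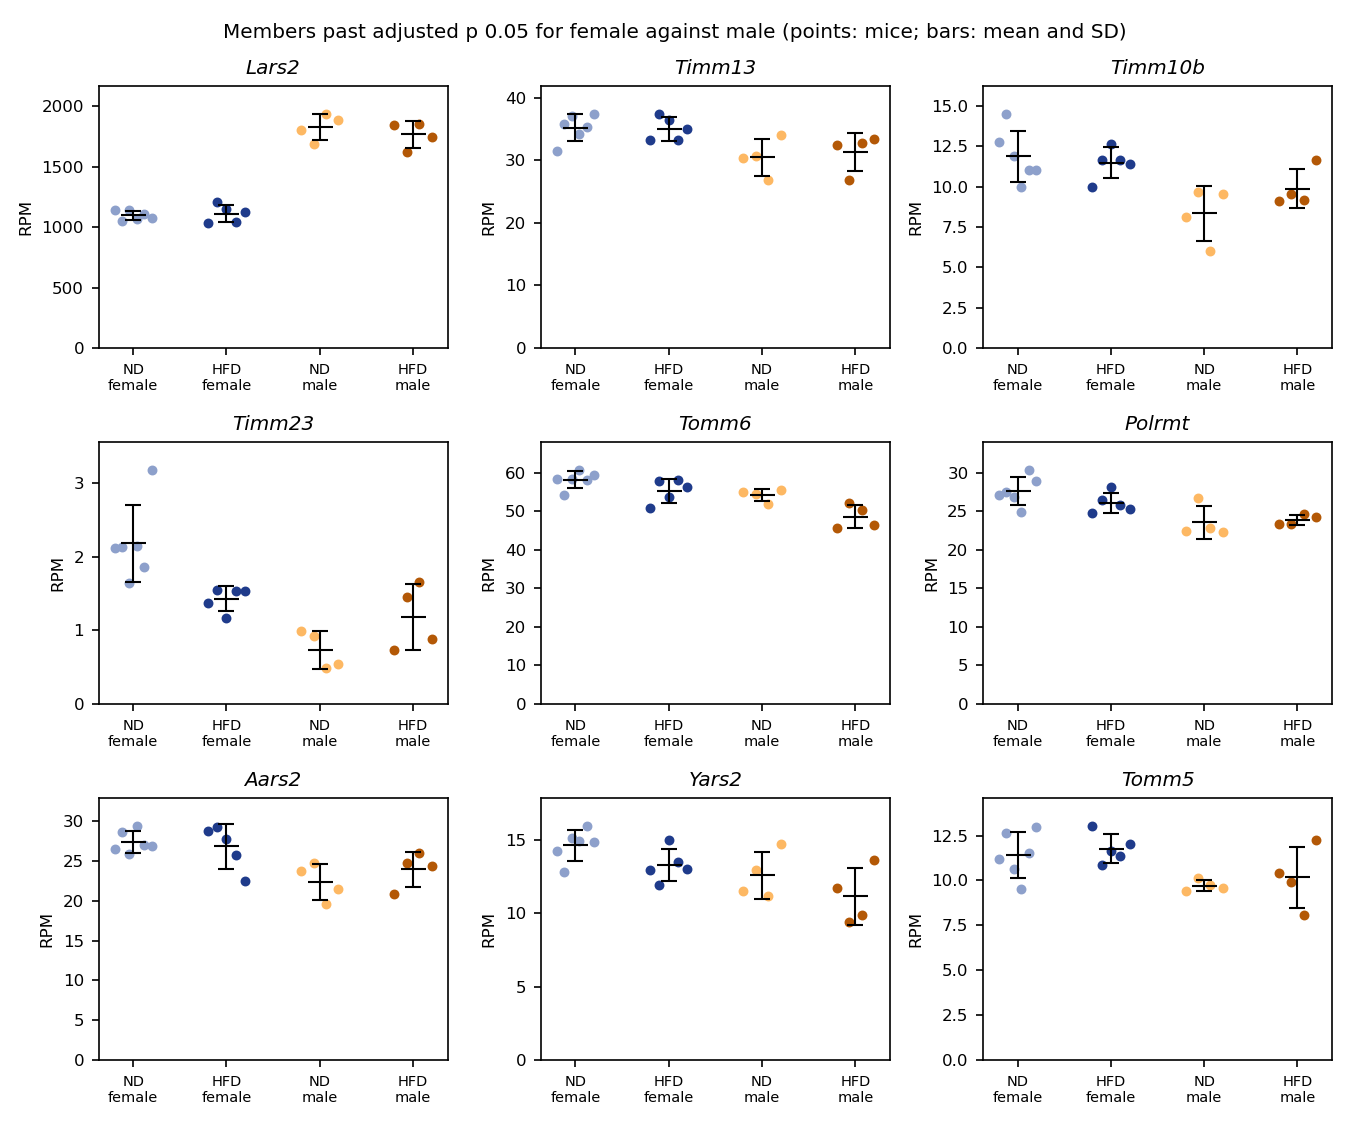
RPM (vertical axis, from 0) of the 9 members past an adjusted p of 0.05 between females and males, in the 4 groups, with 1 point for each mouse and bars for the mean and SD. The female and male points are separate for Lars2 (1037 to 1205 against 1619 to 1937 RPM) and overlap in the other 8 panels.

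The 8 members higher in females overlapped between the sexes. Timm10b, a small Tim protein bound to the TIM22 complex, ran from 9.99 to 14.5 RPM (median 11.7) in females and from 6.04 to 11.7 (median 9.35) in males, with a log2 fold change of 0.37 (SE 0.09, adjusted p = 0.015, edgeR). Timm13, which works with Timm8 proteins, ran from 31.4 to 37.4 RPM in females and 26.8 to 34.1 in males (0.19, SE 0.05, adjusted p = 0.014). The small TOM subunits Tomm6 (0.15, SE 0.04, adjusted p = 0.017) and Tomm5 (0.23, SE 0.07, adjusted p = 0.043) were higher too. So was Polrmt, the mitochondrial RNA polymerase (0.19, SE 0.05, adjusted p = 0.018), at 24.8 to 30.3 RPM in females and 22.3 to 26.8 in males. The alanyl enzyme Aars2 (0.23, SE 0.06, adjusted p = 0.020) and Yars2 (0.24, SE 0.07, adjusted p = 0.027) followed. Timm23 is counted among the 8, but its reads were too few for the filter in males alone and it entered the comparison through the female libraries, so its value (0.91, SE 0.23, adjusted p = 0.016) is a description and does not support a higher level in females.

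At the unadjusted level alone the TOM genes Tomm40 (0.13, SE 0.05), Tomm40l (0.09, SE 0.03) and Tomm70a (0.14, SE 0.06) were higher in females, as were Timm22, the channel for carrier proteins (0.17, SE 0.06), Timm50, the receptor of the TIM23 complex (0.13, SE 0.05), and the cysteinyl enzyme Cars2 (0.16, SE 0.07). Cars2 was lost without F1128 or F1129 (unadjusted p = 0.050 and 0.058). Tomm70a was lost without any 1 of 9 mice, namely F1102, F1104, F1139, F1100, F1252, F1080, F1131, F1065 and F1145 (unadjusted p = 0.051 to 0.084). With the olfactory bulb markers as a covariate 0 of the 8 members higher at the adjusted level kept an adjusted p under 0.05. At the unadjusted level Tomm6 (unadjusted p = 0.58, log2 fold change 0.03), Aars2 (unadjusted p = 0.18) and Timm23 (unadjusted p = 0.12) were lost in edgeR. So were Tomm40 (unadjusted p = 0.26), Tomm70a (0.22), Tomm40l (0.17) and Timm22 (0.059). Over all 45 members the count higher in females at that level went from 14 to 8. At the adjusted level the calls over all genes went from 933 higher and 738 lower to 28 and 19. Of the 8 members, 4 stayed higher at the adjusted level with the microglia list as a covariate, and 5 without the 2 mice whose identifiers begin with A. At the unadjusted level Timm50 was lost without these 2 mice (0.056), and Cars2 (0.055) and Tomm5 (0.051) with the microglia list.

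Genes of the same pathways outside the rule were read against the same background for diet, 12.4% of all genes past an unadjusted p of 0.05. Of 25 import partners 0 were higher and 2 lower with both sexes (8.00%), namely Mtx2, a metaxin of the outer membrane (-0.13, SE 0.05), and Pmpcb, a subunit of the peptidase that removes import signals (-0.11, SE 0.04). Of 21 genes of mitochondrial tRNA synthesis and modification 1 was higher (Gars, 0.12, SE 0.05) and 1 lower (Pus1, -0.14, SE 0.05), which is 9.52%. Of 34 genes of mitochondrial DNA upkeep, RNA and translation 0 passed in edgeR, the tool used for these lists, and the smallest adjusted p was 0.46. Cytosolic tRNA synthetases gave 5 higher and 1 lower of 22 (27.3%, median log2 fold change 0.06), among them Yars (0.15, SE 0.05), Mars (0.17, SE 0.06) and Cars (0.26, SE 0.09). Among 17 regulators 4 passed (23.5%), of which the stress factors Atf4 (0.29, SE 0.10) and Atf5 (0.25, SE 0.10) were higher, and the coactivator Ppargc1a (-0.15, SE 0.06) and the lysosomal factor Tfeb (-0.23, SE 0.11) were lower. All of these had adjusted p-values of 0.216 or more.

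Between the sexes, the same lists gave calls at an adjusted p under 0.05 in both directions, to be read beside 11.3% of all genes (6.29% higher and 4.98% lower). Import partners had 6 of 25 (24%), with 3 higher in females, the chaperonin Hspe1 (0.21, SE 0.05), Dnlz (0.16, SE 0.05) and Romo1 (0.34, SE 0.10), and 3 lower, the oxidative import factor Chchd4 (-0.13, SE 0.04), Pmpca (-0.10, SE 0.03) and the inner membrane insertase Oxa1l (-0.18, SE 0.05). Regulators had 3 of 17 (17.6%). Of these Esrra (0.28, SE 0.07) and Tfeb (0.37, SE 0.11) were higher in females and Ppargc1a (-0.22, SE 0.06) lower. The other lists had 1 each, or 2.94% to 4.76% of their genes. Gtpbp3 (0.29, SE 0.07) and the cytosolic aspartyl enzyme Dars (0.11, SE 0.03) were higher, and Slirp, a partner of mitochondrial mRNA (-0.18, SE 0.05), was lower. The calls of these lists were not followed through the alternatives. With the olfactory bulb covariate, adjusted calls over all genes went from 933 higher and 738 lower to 28 and 19. Sex and depth cannot be told apart here either.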

How the data were processed

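Reads of 19 cortex libraries had been aligned and counted by the authors on mm9 (the submitters' processing notes name featureCounts and Subread 1.4.0), and the deposited table holds the count and the RPM of each gene in each library. The authors kept 14996 genes over 1 RPM in at least 2 libraries. Each RPM is the count scaled to its library total, so no depth is lost. Strand settings are not given in the sources used here. Counts of all genes were tested by quasi-likelihood in edgeR 4.0.16 under R 4.3.3 (filterByExpr with minimum count 10 and minimum total 15, TMM, robust dispersions, Benjamini-Hochberg over all genes tested), and values are printed as RPM. SE is the absolute log2 fold change over the root of the F statistic. Models held diet and sex, diet in each sex, or their interaction. The labels give no batch, and mice of separate groups share no number. P-values rest on the spread between mice with dispersions moderated over all genes, and not on the spread of 1 gene alone.

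Members, gene lists and tests were chosen with earlier results of these data known. Named are members past an unadjusted p of 0.05 in any comparison, the 4 with the smallest p of each subgroup, the 3 that the study's text names, and members whose sequence is shown or that the filter dropped. For the other lists they are genes past an adjusted p of 0.05 and up to 3 per list with the smallest p. Genes outside this rule were chosen after their values were seen: Timm9, Tomm22, Timm17a, Timm44, Tfam, Iars2, members named for their level or as outlying, near copies and rRNA genes. Alternatives were edgeR's likelihood ratio test, DESeq2 1.42.0, limma 3.58.1 (voom, and log2 of RPM plus 1 or 0.1), RLE, upper quartile and library total scaling, a 4-group fit, models without sex (or without diet), no filter or 1 CPM in 4 libraries, the cortical neuron or microglia list as a covariate, and leaving out mice. Shared sequence was found with blastn 2.17.0 (at least 95% identity over 250 bases). The tests were checked on simulated counts.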

Additional observations from a re-analysis of the deposited data

Results flagged for a closer look

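The diet difference of 2 members differed between the sexes at an unadjusted p under 0.05 (male minus female, edgeR), by 1.3072 on the log2 scale for Timm23 and 0.4726 for Tfb1m, and neither passed at the adjusted level. The Timm23 value rests on 5 to 17 reads per male library.

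Within groups of 4 to 6 mice, 13 values in 204 gene-and-group sets (6.37%) stood far from the rest by Dixon's criterion, and chance alone flags about 1 in 20. In ND males, F1131 was lowest for Iars2 (56.51 RPM), Mtrf1l (6.124 RPM) and Tfam (31.59 RPM) and highest for Tomm22 (54.9 RPM), F1080 was highest for Polrmt (26.77 RPM), and F1128 was lowest for Timm9 (20.56 RPM) and for the sum of the synthetases without Lars2 (270.4 RPM). In HFD males, F1145 was highest for Timm10b (11.66 RPM) and Timm22 (24.39 RPM), and F1065 lowest for Timm13 (26.9 RPM) and Vars2 (16.99 RPM). In females, F1252 was highest for Mtrf1l on HFD (8.621 RPM, the next at 5.77) and F1139 highest for Timm23 on ND (3.178 RPM, the next at 2.152).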

How the results depend on the processing

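No fold change that passed its test changed sign in any alternative, and 0 members passed an adjusted p of 0.05 for diet or the interaction in any alternative or without any 1 mouse. With both sexes, the count of lower members went from 4 to 2 in the 4-group fit, without a term for sex, with the neuron list or the olfactory bulb list as a covariate and without the 2 mice whose identifiers begin with A, and to 1 with the microglia list as a covariate. In females, the count of lower members went from 2 to 1 with the likelihood ratio test, DESeq2, upper quartile scaling or the microglia covariate and to 0 with the olfactory bulb covariate, and the count of higher members went from 1 to 0 without the A mouse and to 2 with the olfactory bulb covariate. In males, the count of lower members went from 1 to 3 with limma on either log2 RPM scale or with library totals, to 2 in the 4-group fit and with the neuron or olfactory bulb covariate, and to 0 with the microglia covariate, while the higher count went from 2 to 1 with the microglia or olfactory bulb covariate. For the interaction, the higher count went from 2 to 1 with DESeq2, library totals or without the A mice, and the lower count from 0 to 1 with both limma log2 RPM fits and library totals. Between the sexes, the members higher at the adjusted level went from 8 to 4 with the microglia covariate, 5 without the A mice and 0 with the olfactory bulb covariate, and those higher at the unadjusted level from 14 to 8 with the last. Cause was not tested for any of these. The olfactory bulb covariate and the sum of Tfb2m with Gm1818 were chosen after seeing the data.

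Leaving out 1 mouse at a time gave 3 to 6 higher and 1 to 4 lower members with both sexes, 0 to 3 and 1 to 4 in females, 2 to 4 and 0 to 2 in males, and 1 to 4 and 0 to 2 for the interaction. Between the sexes it gave 13 to 15 higher and 1 to 2 lower members at the unadjusted level, and 6 to 9 higher and 1 lower at the adjusted one. Over all genes in males, library totals moved the calls from 601 higher and 601 lower to 405 and 875, and the median log2 fold change to -0.0354. Of the 22 import genes, 20 stayed positive between the sexes under every scaling and filter and with the olfactory bulb covariate, and 17 with the microglia covariate. Their median log2 fold change was 0.08 with the olfactory bulb covariate and 0.13 with the microglia covariate. No paired analysis was possible because mouse identifiers are not shared between groups. Depth limits Timm23 and Timm8a1 most, with 5 to 47 and 6 to 26 reads per library.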

Other observations

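Genes whose level moved most like that of Tfb2m were sought over the 19 libraries, as the Pearson correlation of log2 CPM after group means were removed. Of 14833 genes compared, Ccbl1 (r = 0.824), Ccar2 (0.777), Tm6sf1 (0.774), Natd1 (0.76) and Ddb2 (0.756) stood highest. These are the highest values of a search over all those genes, for a gene with 44 to 102 reads per library, and none was tested against chance. The points share library depth and tissue composition, and the values are a description.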
